A study of Homo sapiens with 15 samples.

Results

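Human self-renewing neuromesodermal progenitors (srNMPs) were compared with cells induced from them for 7 days under a condition that the labels call RASS, an abbreviation they do not spell out. The comparison takes 6 of the 15 libraries of the series, chosen by their labels: 2 RASS libraries and 4 srNMP libraries. All come from the human embryonic stem cell lines H1 and HUES9, which are labelled as wild type. Each srNMP line was sampled at P8 and at P25, read here as passage numbers, so the srNMP group holds 1 library for each line and passage, and the RASS group 1 library labelled with each line. The labels call the RASS cells neuron progenitors and carry the same treatment entry for both groups, and the agents of the induction are not given in them. Independence of the cultures beyond line and passage is not stated. The p-values below set the group difference against the spread between these libraries, which includes line and passage. The 4 srNMP libraries enter as separate replicates, although each line gave both passages. Messenger RNA was measured as FPKM (fragment counts divided by transcript length and by library size), and 12312 of 17999 listed genes reached 1 FPKM in at least 1 of the 6 libraries and were tested.

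Neuromesodermal progenitors are cells of the tail bud that can give rise to spinal cord and to paraxial mesoderm, and they are kept in that state by FGF and WNT signals. When their descendants form the neural tube, FGF and WNT signals fall away, retinoic acid from the somites promotes neural differentiation, and Sonic hedgehog from the notochord and floor plate patterns the ventral side. Hedgehog ligands bind the receptor PTCH1, which releases the membrane protein SMO and lets GLI factors turn on target genes, among them PTCH1 itself. Graded hedgehog signalling sets up bands of progenitors along the dorsoventral axis: OLIG2 marks those that make motor neurons, NKX2-2 the band below them, and PAX3, PAX7 and the ZIC genes mark dorsal cells.

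The line labels of the RASS libraries were examined before any result. Of the genes on autosomes, 10 differed between HUES9 and H1 by more than 2 on the log2 scale in the same direction at both srNMP passages and in 2 later neuron groups of the series. All 10 differed in the opposite direction between the RASS libraries. The catalase gene CAT was at 16.2 and 17.1 FPKM in H1 srNMPs and at 0.048 and 0.0378 in HUES9 srNMPs, but at 0.0124 in the RASS library labelled H1 and 16.1 in the one labelled HUES9. With a threshold of 1, chosen after seeing the data, 47 of 47 genes were opposite. The RASS libraries are therefore called the library labelled H1 and the library labelled HUES9 throughout, and no result of the main fit pairs them with srNMPs by line.

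The 5 genes that mark the RASS cells were at their highest there. OLIG2, NKX6-1, NKX6-2, PTCH1 and GLI1 were each higher in both RASS libraries than in all 4 srNMP libraries, and their values are given below. Of the srNMP markers, SOX2, shared by neural and neuromesodermal progenitors, was at 213, 165, 161 and 147 FPKM in the srNMP libraries in the order H1 P8, H1 P25, HUES9 P8 and HUES9 P25, which is kept below. The neuromesodermal factor TBXT was at 2.11, 1.87, 13.4 and 7.39. CDX2, a caudal homeobox factor, was at 0.00615, 11.5, 39.0 and 21.8, and NKX1-2, a marker of the caudal epiblast, at 0, 2.69, 11.2 and 4.28, so that the H1 P8 library held next to none of either. The summed FPKM per library ranged from 306634 to 421109, and each library had between 10835 and 11354 genes at 1 FPKM or more. Read counts are not in the table. From the steps between low values, the depth of a library was estimated at 0.959 to 1.038 of the mean of the 6. The search took only a limited range of ratios to a reference library, so a depth outside that range could not have been found. Of 801 to 900 low-valued genes compared for each other library, 99 to 130 lay at the estimate. Spearman's rho across the tested genes was 0.965 between the RASS libraries, 0.907 to 0.969 between srNMP libraries and 0.816 to 0.932 between the groups; genes are not independent replicates, and no p is given.

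Over all tested genes, limma with Benjamini-Hochberg adjustment called 688 at an adjusted p under 0.05, which is 5.59% of them. Of these, 385 genes rose in RASS (3.13% of the tested genes) and 303 fell (2.46%), so 56.0% of the calls were increases. Before adjustment, 3131 of the 12312 tested genes had a limma p under 0.05. Both RASS libraries were above all srNMP libraries in 23.7% of the tested genes and below all of them in 18.6%, and the groups of every called gene did not overlap. The median log2 difference of all tested genes was 0.05, and 0.25 with libraries scaled to equal totals. With that scaling 70.3% of the calls were increases, against 51.8% with quantile normalization and 42.0% with a pseudocount of 0.1. The number of calls rested on single libraries: it was 173 without the library labelled H1, 72 without the library labelled HUES9, 130 without the H1 P25 srNMPs and 436 without the H1 P8 srNMPs. It was 794 without the HUES9 P25 srNMPs and 924 without the HUES9 P8 srNMPs. With the cell line as a replicate block it was 417 as labelled and 669 with the RASS libraries exchanged. All differences below are RASS minus srNMP on the log2(FPKM + 1) scale with their standard errors, a scale that understates the change of genes with low values. All adjusted p-values are from that limma fit unless another setting is named. In bulk RNA, fewer cells of a type and less RNA per cell cannot be told apart.

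**Figure D1:**
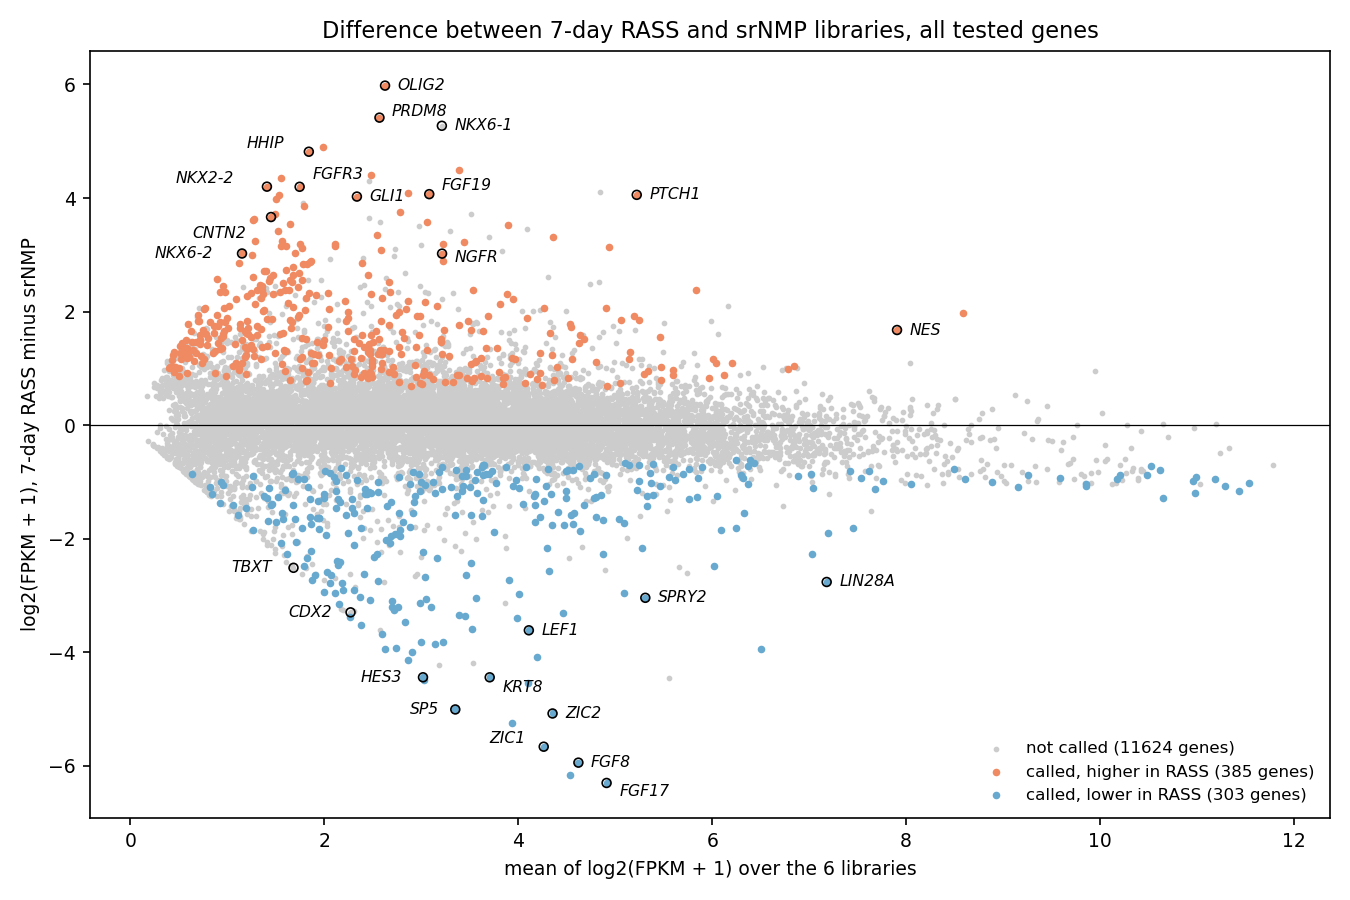
Difference on the log2(FPKM + 1) scale, 7-day RASS minus srNMP (vertical), against the mean of log2(FPKM + 1) over the 6 libraries (horizontal), with 1 point for each of 12312 tested genes. The 385 called increases and 303 called decreases are coloured, and the circled genes include OLIG2 at the top (5.98) and FGF17 at the bottom (-6.30).

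The genes that hedgehog signalling turns on in many tissues were examined first. Of the 9 on the list, all were tested and 5 rose, against 3.13% of all tested genes, and 0 fell. The median difference of the list was 1.39, against 0.05 for all genes. PTCH1, the hedgehog receptor and a feedback inhibitor, was at 249 and 235 FPKM in the libraries labelled H1 and HUES9. In the srNMP libraries it was at 11.6, 10.7, 9.03 and 29.995. The groups were far apart, with the highest srNMP value in HUES9 P25, and PTCH1 rose from 15.3 ± 9.84 to 242 ± 9.92 FPKM (mean ± SD, n = 4 and n = 2; log2 difference 4.06 ± 0.43, adjusted p = 0.00616, limma).

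HHIP, which binds hedgehog ligands at the cell surface and so limits the signal, was at 23.3 and 44.1 FPKM in RASS and at 0.0196, 0.342, 0.254 and 0.119 in srNMPs. It was near 0 in every srNMP library and rose by 4.82 ± 0.27 (adjusted p = 0.000665). GLI1, a zinc finger factor that is both a target and an activator in the pathway, was at 25.03 and 39.5 FPKM in RASS and at 0.349, 0.928, 0.771 and 2.42 in srNMPs (log2 difference 4.03 ± 0.38, adjusted p = 0.00393). For PTCH1, HHIP and GLI1 both RASS libraries were thus above all srNMP libraries. The smallest of the 5 increases was that of CCND1, a D-type cyclin, at 137 and 87.9 FPKM in RASS and at 59.9, 43.4, 39.8 and 51.6 in srNMPs (log2 difference 1.17 ± 0.24, adjusted p = 0.0416).

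The other 4 hedgehog response genes were not called. CCND2, another D-type cyclin, was at 26.3 and 31.7 FPKM in RASS and 31.0, 31.1, 41.1 and 34.7 in srNMPs (adjusted p = 0.424), and MYCN, a growth factor response gene of neural progenitors, was at 52.9 and 22.3 against 42.5, 50.1, 52.0 and 40.1 (adjusted p = 0.456); both overlapped. FOXF1, a forkhead factor of hedgehog-responsive mesoderm, was at 6.98 FPKM in the library labelled H1 and 0.00845 in the one labelled HUES9, against 0 to 0.297 in srNMPs. Its relative FOXF2 was at 0.0347 and 0 against 0.283 to 2.40 (adjusted p = 0.215). HHIP and GLI1 were called whichever 1 library was left out. PTCH1 was not called without the library labelled HUES9 (adjusted p = 0.0591), and CCND1 without the library labelled H1 (0.222), the one labelled HUES9 (0.119), H1 P25 (0.126) or HUES9 P25 (0.058), nor without the filter on low values.

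The promoter of PTCH1 is shown because that gene is the canonical readout of GLI factors. The RefSeq promoter table (GRCh38.p14) covers 250 bases before to 50 after a gene's start. It was searched on both strands for GACCACCCA, a core sequence recognised by GLI factors. Of 35116 windows, 0.236% held it. Among the 4 hedgehog response genes with a window, PTCH1 was the one gene with a match, in 1 of its 5 windows. The stretch below lies on the minus strand of chromosome 9 (chr9:95509387-95509486), begins at position -220 from that start, and reads 5′ to 3′ along the gene. Capitals mark the match, which is on the opposite strand and so reads TGGGTGGTC here, at positions -172 to -164.
PTCH1: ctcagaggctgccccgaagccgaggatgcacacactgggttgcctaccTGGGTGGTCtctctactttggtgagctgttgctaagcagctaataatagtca
A match is a description of letters and not a measured binding site.

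The parts of the hedgehog pathway that send and relay the signal were nearly level by comparison. Of 20 such genes 16 were tested, 1 rose, against 3.13% of all tested genes, and 0 fell, and the median difference was 0.07. SHH, the ligand gene, was listed at 0 in all 6 libraries, and the other ligand genes IHH and DHH were at 0.0449 FPKM or less in each. SMO, the signal transducer, was at 37.0 and 37.6 FPKM in RASS and 30.2, 32.8, 17.97 and 28.02 in srNMPs (log2 difference 0.47 ± 0.25, adjusted p = 0.275). The called gene was SCUBE3, a secreted protein of a family that helps to release hedgehog ligands, at 9.76 and 11.5 against 3.31, 3.93, 3.10 and 4.61 (log2 difference 1.30 ± 0.19, adjusted p = 0.0161), and it was not called without either RASS library (adjusted p = 0.0818 and 0.197) or without H1 P25 (0.0627).

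Another 2 members of this list had lower values in RASS without being called. CDON, a co-receptor for hedgehog ligands that is repressed by the signal in the ventral neural tube, was at 0.827 and 1.76 FPKM in RASS and at 39.2, 21.8, 6.11 and 5.17 in srNMPs (log2 difference -2.66 ± 0.76, adjusted p = 0.0884). GLI3, which acts mainly as a repressor in the spinal cord, was at 2.68 and 5.51 against 23.05, 15.9, 6.39 and 9.81 (log2 difference -1.46 ± 0.48, adjusted p = 0.121). For both genes the RASS libraries were below all srNMP libraries, and the H1 srNMP libraries were above the HUES9 ones.

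Ventral progenitor factors of the neural tube were the second group. Of 12 on the list 9 were tested, 4 rose and 0 fell, and the median difference was 3.91. Both RASS libraries lay above all srNMP libraries for 6 of the 9, against 23.7% of all tested genes, and 3.13% of those were called as increases. OLIG2, the basic helix-loop-helix factor of motor neuron and oligodendrocyte progenitors, was at 182 FPKM in the library labelled H1 and 51.2 in the one labelled HUES9. Across srNMPs it was at 0.0897, 0.105, 0.177 and 3.08. Only HUES9 P25 was above 1 FPKM among these, and OLIG2 had the largest called increase of all tested genes with a group mean of at least 5 FPKM (log2 difference 5.98 ± 0.69, adjusted p = 0.00776). NKX2-2, the homeobox factor of the band below, was at 24.6 and 12.4 FPKM in RASS and was listed at 0 in 3 srNMP libraries and at 0.0231 in H1 P8 (log2 difference 4.20 ± 0.27, adjusted p = 0.00115). NKX6-2, a homeobox factor of ventral progenitors, was at 9.69 and 6.55 against 0.00747, 0, 0.0591 and 0.396 (log2 difference 3.02 ± 0.24, adjusted p = 0.00252). PRDM8, a histone methyltransferase family member of intermediate and ventral progenitors, was at 44.0 and 116 against 0.216, 0.0526, 0.0199 and 5.36 (log2 difference 5.42 ± 0.80, adjusted p = 0.0163).

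NKX6-1, which is needed for motor neuron progenitor identity, did not pass the threshold. It was at 159 and 69.3 FPKM in RASS and at 0.112, 0.944, 0.135 and 22.01 in srNMPs. The groups did not overlap, but HUES9 P25 stood far above the other srNMP libraries (log2 difference 5.27 ± 1.21, adjusted p = 0.0527), and without that library the adjusted p was 0.00188. It was called at equal totals and with quantile normalization. OLIG1, the neighbour of OLIG2 in the genome and its relative, was at 70.1 and 5.14 against 0.0244, 0.0128, 0.0121 and 2.53 (log2 difference 3.91 ± 0.97, adjusted p = 0.0624; 0.0411 without the library labelled HUES9). FOXN4, a factor of p2 progenitors, was at 1.86 and 3.50 against 0.419, 0.176, 0.0598 and 2.31 (adjusted p = 0.174).

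DBX1 and DBX2, homeobox factors of progenitors midway along the axis, did not divide by group. DBX1 was at 0.388 FPKM in the library labelled H1 and 60.5 in the one labelled HUES9, while srNMPs had 0.157, 0.0467, 0 and 66.0. The high values were thus in 1 RASS library and in HUES9 P25 (adjusted p = 0.653). DBX2 had 0 and 1.35 in RASS and 0.474 in HUES9 P25, and was listed at 0 in the other srNMP libraries. Among the members that were not tested, NKX2-8 and PRDM12 were under 1 FPKM in every library. OLIG2, NKX2-2 and NKX6-2 were called whichever 1 library was left out. PRDM8 lost its call without the library labelled H1 (adjusted p = 0.0556), the one labelled HUES9 (0.163) or H1 P25 (0.0651), and without HUES9 P25, 6 ventral genes were called.

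**Figure D2:**
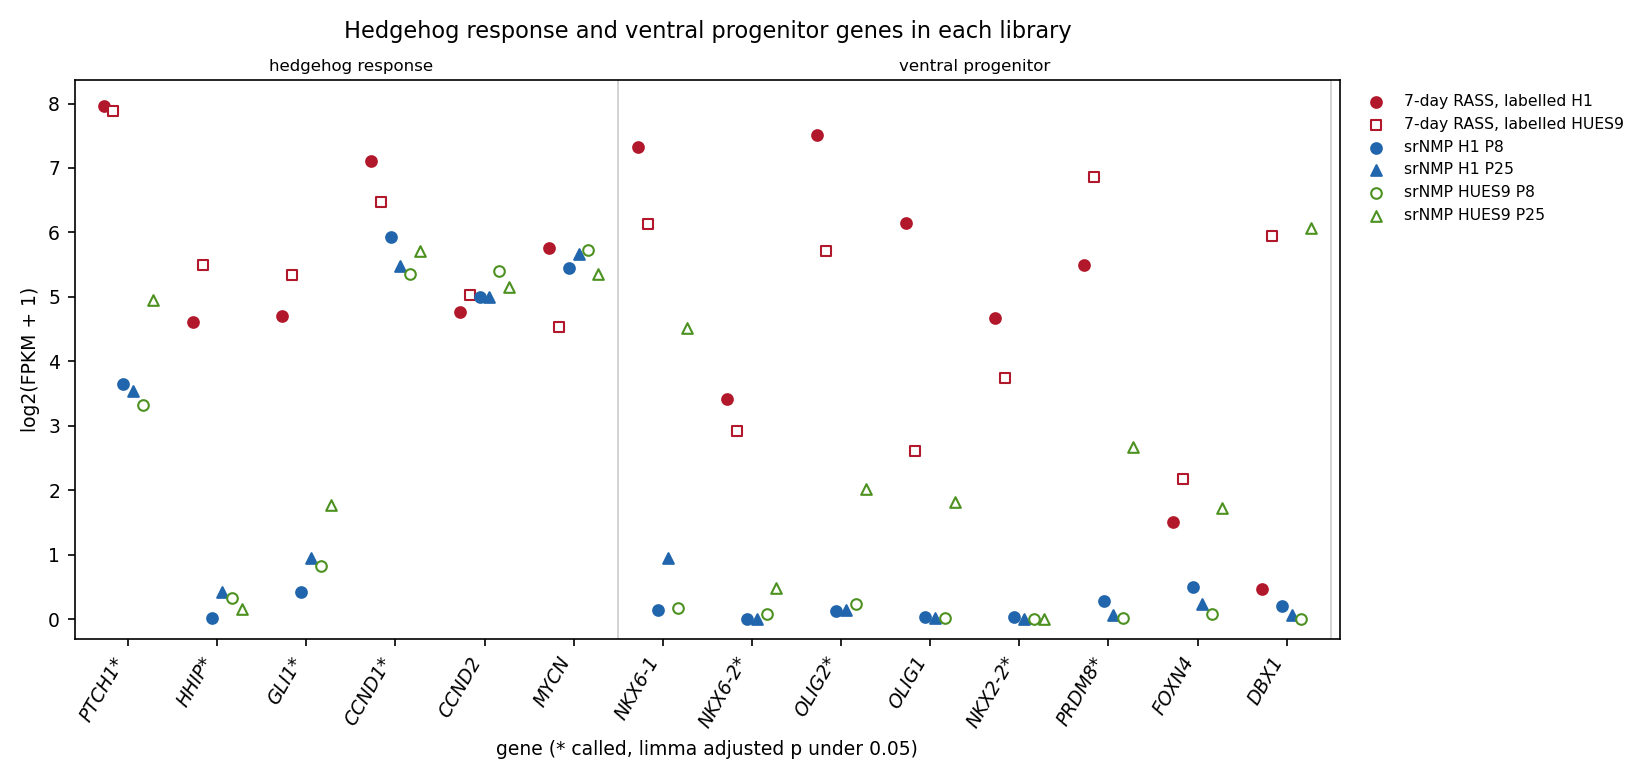
Level of hedgehog response and ventral progenitor genes, log2(FPKM + 1), in each of the 6 libraries; each point is 1 library and an asterisk marks called genes. Both RASS libraries lie above all srNMP libraries for PTCH1, HHIP, GLI1, OLIG2, NKX2-2 and NKX6-2, while HUES9 P25 has the highest srNMP level of NKX6-1 and of DBX1.

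Markers of the floor plate, the cells at the ventral midline that make SHH in the embryo, gave no call. Of 10 genes 4 were tested and 0 were called in limma, with a median of -0.16. An unadjusted p under 0.05 was reached by 1 of them, against 3131 of all 12312 tested genes. FOXA2, the forkhead factor that defines this cell type, was at 0.0103 FPKM in the library labelled H1 and listed at 0 in the other 5 libraries. FERD3L was listed at 0 in all 6. NTN1, the axon attractant made by floor plate and by ventral progenitors, was at 32.2 and 25.6 FPKM in RASS and 0.315, 0.192, 0.429 and 13.1 in srNMPs (log2 difference 3.65 ± 0.98, adjusted p = 0.0755), and without HUES9 P25 its adjusted p was 0.000593.

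Dorsal progenitor genes moved the other way. Of 20 on the list 11 were tested, 4 fell, against 2.46% of all tested genes, and 0 rose. The median difference was -2.75, and both RASS libraries were below all srNMP libraries for 8 of the 11, against 18.6% of all genes. ZIC1, a zinc finger factor of the dorsal neural tube, was at 0.183 and 0.662 FPKM in RASS and at 113, 75.2, 81.4 and 34.4 in srNMPs (log2 difference -5.66 ± 0.44, adjusted p = 0.00234). ZIC2 was at 2.09 and 0.241 against 89.7, 71.3, 83.6 and 33.3 (log2 difference -5.08 ± 0.49, adjusted p = 0.00449), and ZIC5 at 0.151 and 0.00661 against 28.1, 16.7, 21.3 and 10.3 (log2 difference -4.14 ± 0.36, adjusted p = 0.00279). These ZIC genes were at 10.3 FPKM or more in every srNMP library and at 2.09 or less in both RASS libraries. BMP4, a dorsal signal made by roof plate and surface ectoderm, was at 1.69 and 0.012 FPKM against 9.82, 19.3, 11.1 and 4.67 (log2 difference -2.75 ± 0.55, adjusted p = 0.0393).

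Several dorsal factors with non-overlapping groups were not called. PAX3, a paired-box factor of dorsal progenitors and neural crest, was at 0.00688 and 0.173 FPKM in RASS and 29.4, 17.4, 5.93 and 2.21 in srNMPs (log2 difference -3.28 ± 0.83, adjusted p = 0.0657; 0.0206 without HUES9 P25). PAX7, its close relative, was at 0.0613 and 0.294 against 9.57, 2.94, 1.74 and 0.42 (adjusted p = 0.209). MSX1, a homeobox target of BMP signals, was at 0.395 and 0.291 against 0.916, 19.3, 17.4 and 10.99 (adjusted p = 0.112), with the H1 P8 value close to RASS, and MSX2 at 0.194 and 0.23 against 11.4, 9.68, 2.62 and 1.74 (adjusted p = 0.0791). IRX3, which is kept out of the most ventral progenitors, was at 1.48 in the library labelled H1 and 10.8 in the one labelled HUES9, inside the srNMP range of 4.04 to 19.4. The calls of ZIC1, ZIC2 and ZIC5 held whichever library was left out. That of BMP4 was lost without any 1 library other than HUES9 P25 (adjusted p up to 0.311, without the library labelled HUES9), with a pseudocount of 0.1 and without the filter.

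Genes of the tail bud, where neuromesodermal progenitors reside, included the largest decreases. Of 23 genes 18 were tested, 5 fell, against 2.46% of all tested genes, and 0 rose, with a median of -1.82. FGF17, an FGF ligand of the tail bud, was at 0.763 and 0.518 FPKM in RASS and at 78.6, 139.7, 243 and 100.3 in srNMPs (log2 difference -6.30 ± 0.42, adjusted p = 0.00123). FGF8, the ligand that holds caudal progenitors undifferentiated, was at 1.13 and 0.172 against 71.4, 80.8, 171 and 86.3 (log2 difference -5.94 ± 0.39, adjusted p = 0.00123). Both ligand genes were at 1.13 FPKM or less in RASS and at 71.4 or more in all srNMPs. HES3, a repressor of the Hes family, was at 0.0399 and 0.0419 against 14.8, 21.4, 48.2 and 13.96 (log2 difference -4.44 ± 0.47, adjusted p = 0.00599). LIN28A, an RNA-binding protein that blocks let-7 processing, stayed well above 0, at 72.4 and 21.3 against 261, 271, 337 and 235 (log2 difference -2.76 ± 0.43, adjusted p = 0.0193).

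SP5, a zinc finger factor induced by WNT signals in caudal progenitors, was at 0.00896 and 0.0094 FPKM in RASS and at 25.1, 52.9, 45.2 and 16.02 in srNMPs (log2 difference -5.01 ± 0.45, adjusted p = 0.00348). Its promoter is shown because its RefSeq window (GRCh38.p14) held more than 1 match to the sequences that TCF and LEF factors recognise, searched on both strands as ATCAAAG and TTCAAAG. These occur in 2.62% and 4.43% of the 35116 windows. The stretch below, on the plus strand of chromosome 2 (chr2:170715167-170715276), runs from position -170 to -61 relative to the start. Capitals mark 2 matches to TTCAAAG, at -148 to -142 and -84 to -78, and 1 to ATCAAAG on the opposite strand, read here as CTTTGAT, at -109 to -103.
SP5: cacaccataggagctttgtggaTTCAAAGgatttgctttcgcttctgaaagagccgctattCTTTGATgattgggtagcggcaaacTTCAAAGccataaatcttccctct
Of the 16 tail bud genes with a window, 4 held TTCAAAG and 1 held ATCAAAG. Among the 8 WNT target and feedback genes with a window (list given below), 1 held TTCAAAG and 0 held ATCAAAG.

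TBXT, CDX2 and NKX1-2, factors of the neuromesodermal state, had lower group means in RASS but were not called. TBXT was at 0.0111 and 0 FPKM in RASS, against the srNMP values given above (log2 difference -2.51 ± 0.66, adjusted p = 0.0702), with no overlap. CDX2 was at 0.107 and 0 in RASS (log2 difference -3.30 ± 1.33, adjusted p = 0.18); its H1 P8 value lay within the RASS range, and without that library the adjusted p was 0.0109. NKX1-2 was at 0.353 and 0.38 in RASS (adjusted p = 0.309), above its H1 P8 srNMP value given above. WNT5A, a WNT ligand of the elongating axis, was at 1.63 and 1.18 against 2.85, 5.93, 22.9 and 17.2 (adjusted p = 0.124). Not every gene of the list was low in RASS: SP8, a zinc finger factor, was at 18.3 and 22.1 FPKM in RASS and 1.34, 10.2, 15.03 and 20.9 in srNMPs (adjusted p = 0.423). FGF17, FGF8 and SP5 were called whichever library was left out. HES3 was not called without the library labelled HUES9 (adjusted p = 0.0591), nor LIN28A without H1 P25 (0.0753).

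FGF signalling through the MAP kinase pathway induces its own inhibitors and a set of ETS factors. Of 15 such feedback genes, all tested, 6 fell, against 2.46% of all tested genes, and 0 rose, with a median of -1.79. SPRY2, a Sprouty inhibitor of receptor tyrosine kinases, was at 11.2 and 6.77 FPKM in RASS and at 61.0, 67.1, 102 and 93.5 in srNMPs (log2 difference -3.04 ± 0.28, adjusted p = 0.00374). Its relatives had the same order: SPRY4 was at 1.99 and 1.02 against 9.56, 10.6, 8.74 and 8.52 (log2 difference -2.07 ± 0.21, adjusted p = 0.00529), and SPRY1 at 3.69 and 0.0199 against 27.8, 20.9, 19.7 and 35.6 (log2 difference -3.59 ± 0.57, adjusted p = 0.0197). IL17RD, a membrane inhibitor of FGF signalling, was at 10.04 and 5.83 against 79.9, 57.9, 79.8 and 52.1 (log2 difference -2.95 ± 0.27, adjusted p = 0.00361). DUSP6, the phosphatase that acts on ERK, was at 12.2 and 14.3 against 34.8, 62.9, 98.1 and 72.5 (log2 difference -2.17 ± 0.37, adjusted p = 0.0258), and ETV5, an ETS factor downstream of FGF, at 7.97 and 2.59 against 21.2, 16.6, 23.3 and 18.6 (log2 difference -1.87 ± 0.35, adjusted p = 0.0327).

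SPRY2, SPRY4 and IL17RD were called whichever library was left out. SPRY1 was lost without the library labelled HUES9 (adjusted p = 0.0577), without H1 P25 (0.072) and with a pseudocount of 0.1. DUSP6 was lost without the library labelled H1 (0.143), the one labelled HUES9 (0.187), H1 P25 (0.091) or the filter. ETV5 was lost without the library labelled HUES9 (0.162), H1 P25 (0.092), H1 P8 (0.0596) or the filter. The other 9 members had differences between -1.95 and 1.66.

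FGF ligands and receptors did not share a direction. Of 14 genes 12 were tested, 3 rose and 1 fell, against 3.13% and 2.46% of all tested genes, with a median of 0.00. FGF19, a ligand of the developing neural tube, was at 52.8 and 56.3 FPKM in RASS and 1.05, 5.15, 3.21 and 1.25 in srNMPs (log2 difference 4.07 ± 0.45, adjusted p = 0.00677). FGFR2, a receptor, was at 20.2 and 25.1 against 4.02, 6.15, 2.42 and 6.53 (log2 difference 2.09 ± 0.34, adjusted p = 0.021), and FGF9, a ligand, at 8.93 and 7.25 against 2.94, 1.98, 3.21 and 2.67 (log2 difference 1.30 ± 0.20, adjusted p = 0.019). FGF12, which encodes an intracellular FGF homologue, fell from 10.7, 7.00, 7.63 and 3.66 to 0.336 and 0.629 (log2 difference -2.41 ± 0.35, adjusted p = 0.016). FGFR1, the main FGF receptor of caudal progenitors, overlapped between groups, at 40.1 and 37.3 against 52.8, 50.1, 34.6 and 57.5 (adjusted p = 0.414). FGFR3, which was placed in the list of neural progenitor genes as a ventricular zone marker, was at 22.8 and 21.9 FPKM against 0.0871, 0.345, 0.111 and 0.609 (log2 difference 4.20 ± 0.22, adjusted p = 0.000636) and was called whichever library was left out. Without the library labelled HUES9, 0 of the 12 were called as increases (adjusted p = 0.0691 for FGF19), and without the one labelled H1 or without H1 P25, 1 was. The decrease of FGF12 was lost without any of these libraries (adjusted p = 0.119, 0.104 and 0.066).

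WNT targets and feedback genes were tested in the same way. Of 16, all tested, 4 fell and 1 rose, against 2.46% and 3.13% of all tested genes, with a median of -0.73. LEF1, the nuclear partner of beta-catenin and itself a target, was at 1.98 and 2.55 FPKM in RASS and at 32.8, 47.6, 54.7 and 26.3 in srNMPs (log2 difference -3.61 ± 0.30, adjusted p = 0.00266). AXIN2, a feedback inhibitor widely used as a readout of the pathway, was at 9.09 and 9.67 against 24.9, 33.9, 22.9 and 21.1 (log2 difference -1.34 ± 0.21, adjusted p = 0.0191). NKD1, a feedback inhibitor that binds Dishevelled, was at 2.03 and 1.82 against 5.95, 16.98, 7.55 and 10.4 (log2 difference -1.85 ± 0.36, adjusted p = 0.0372), and ZNRF3, which removes WNT receptors, at 5.40 and 3.76 against 13.1, 13.4, 9.06 and 9.20 (log2 difference -1.12 ± 0.23, adjusted p = 0.0425). FRZB, a secreted WNT antagonist, was the member that rose, at 12.476 and 24.5 against 1.92, 2.21, 1.67 and 2.10 (log2 difference 2.64 ± 0.27, adjusted p = 0.00529). The calls of LEF1 and FRZB held whichever library was left out. AXIN2 was lost without either RASS library (adjusted p = 0.121 and 0.167), and NKD1 and ZNRF3 likewise (0.162 and 0.282, and 0.121 and 0.357), without H1 P25 (0.0601 and 0.123) and without the filter. NKD1 was also lost without HUES9 P25 (0.058), and ZNRF3 without H1 P8 (0.0732) and at equal totals.

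**Figure D3:**
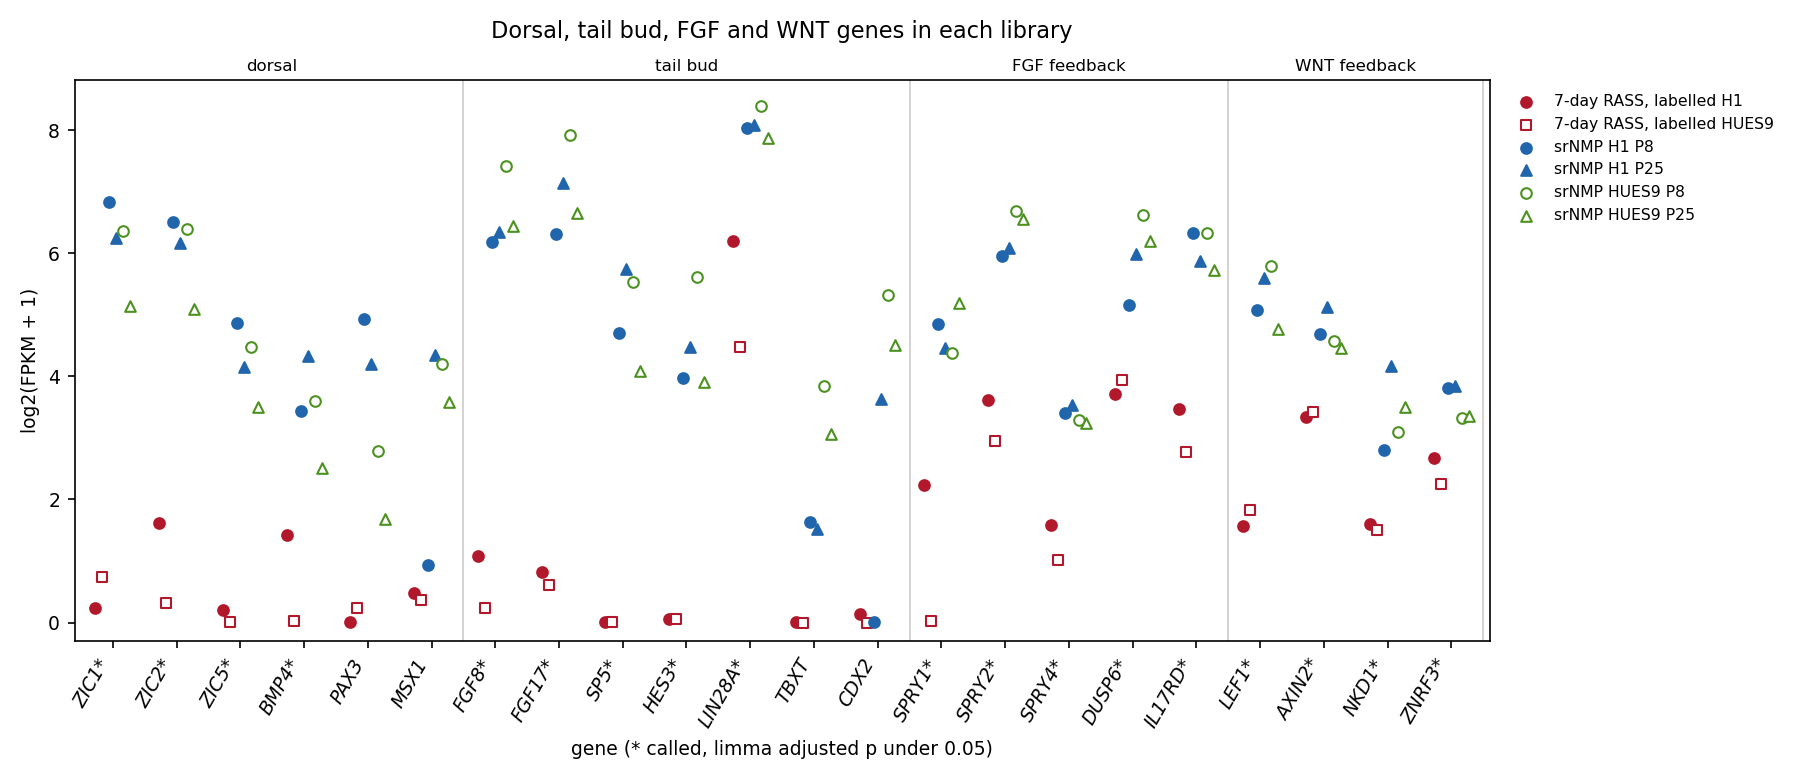
Level of dorsal, tail bud, FGF feedback and WNT feedback genes, log2(FPKM + 1), in each of the 6 libraries; each point is 1 library and an asterisk marks called genes. RASS libraries lie below all srNMP libraries for every gene drawn except CDX2, whose H1 P8 srNMP value is as low as in RASS.

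Retinoic acid genes were examined because that signal promotes neural differentiation of caudal progenitors. Of 22 genes 15 were tested, 3 rose, against 3.13% of all tested genes, and 0 fell, with a median of 0.80. RARB, a retinoic acid receptor and direct target, was at 1.84 FPKM in the library labelled H1 and 10.98 in the one labelled HUES9, against 0.0614, 0.0321, 0.0835 and 0.439 in srNMPs (log2 difference 2.35 ± 0.52, adjusted p = 0.0494). RXRA, the partner receptor, was at 11.4 and 12.02 against 6.07, 6.33, 5.52 and 6.87 (log2 difference 0.82 ± 0.15, adjusted p = 0.0327). STRA6, a retinol importer, had lower values in RASS, at 1.63 and 0.72 against 3.12, 21.01, 9.90 and 9.32 (adjusted p = 0.0718), and MEIS2, a homeobox partner of HOX proteins, higher ones, at 13.4 and 26.6 against 5.17, 3.72, 4.46 and 0.53 (adjusted p = 0.0629). CYP26A1, which degrades retinoic acid, was at 0.141 FPKM or less in every library and was not tested. None of the 3 calls held under every omission: without the library labelled HUES9 or H1 P25, 0 of the 15 were called, RXRA was also lost without the one labelled H1 (0.167) or H1 P8 (0.0635), and RARB was lost without H1 P8 (adjusted p = 0.0826), HUES9 P25 (0.061) or HUES9 P8 (0.0697). Without the filter 1 gene was called, and at equal totals 5.

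The RARB promoter is shown because it carries the classical retinoic acid response element, a direct repeat searched here as GTTCA, any 6 bases and GTTCA again, on both strands. It occurs in 0.057% of the 35116 windows, and among the retinoic acid genes with a window it was found in RARB and CYP26A1. The stretch lies on the plus strand of chromosome 3 (chr3:25428153-25428252, RefSeq, GRCh38.p14), at positions -110 to -11 from the start of 1 of the 4 RARB windows. Capitals mark the match at -52 to -37.
RARB: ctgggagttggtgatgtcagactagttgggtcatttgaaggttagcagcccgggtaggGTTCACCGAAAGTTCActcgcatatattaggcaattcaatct

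Genes of the neural progenitor state and of neurogenesis were tested next. Of 20 neural progenitor genes, all tested, 3 rose and 1 fell, against 3.13% and 2.46% of all tested genes, with a median of 0.80. SOX4, an HMG-box factor of committed progenitors, was at 74.0 and 80.3 FPKM in RASS and 17.2, 14.8, 15.2 and 24.6 in srNMPs (log2 difference 2.07 ± 0.22, adjusted p = 0.00631). NES, the intermediate filament of neural stem cells, was at 579 and 466 against 157, 152, 129.6 and 222 (log2 difference 1.68 ± 0.23, adjusted p = 0.0143), and FGFR3, given above, was the third. LIX1 fell, at 0.399 and 0.474 against 19.9, 19.6, 17.7 and 6.88 (log2 difference -3.46 ± 0.41, adjusted p = 0.00828). SOX2 was at 258 and 257 in RASS, above all srNMP values given above (adjusted p = 0.0977), and SOX3, a related factor, at 116 and 187 against 43.1, 24.4, 27.1 and 93.2 (adjusted p = 0.0864). PAX6, a paired-box factor of neural progenitors that hedgehog signalling represses at high level, was at 12.97 in the library labelled H1 and 69.0 in the one labelled HUES9, against 0.178, 0.161, 0.324 and 24.5 in srNMPs (adjusted p = 0.159). Its overlap came from HUES9 P25, without which the adjusted p was 0.0147. NES was lost without either RASS library (adjusted p = 0.0974 and 0.0941) or H1 P25 (0.063), LIX1 without either RASS library (0.0546 and 0.0792) and SOX4 without the one labelled HUES9 (0.0772). The list had 6 increases without HUES9 P25, 5 at equal totals and 1 without the library labelled HUES9.

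Proneural and early neuronal factors had 14 tested genes of 16, with a median of 2.32. Of these, 4 rose, against 3.13% of all tested genes, and 0 fell. NEUROG2, the proneural factor of motor neuron progenitors, was at 69.0 and 80.7 FPKM in RASS and 1.72, 3.65, 10.7 and 11.6 in srNMPs (log2 difference 3.52 ± 0.62, adjusted p = 0.0279). NHLH2, a helix-loop-helix factor of newborn neurons, was at 7.71 and 23.7 against 0.358, 0.161, 0.201 and 2.59 (log2 difference 3.18 ± 0.58, adjusted p = 0.0302). MYT1, a zinc finger factor of neurogenesis, was at 6.80 and 10.5 against 0.89, 0.287, 0.0445 and 2.03 (log2 difference 2.51 ± 0.43, adjusted p = 0.0258), and EBF2, a factor of migrating young neurons, at 5.46 and 9.004 against 0.64, 0.0955, 0.0798 and 2.58 (log2 difference 2.31 ± 0.51, adjusted p = 0.0483). NEUROD4 (23.3 and 27.000 against 5.32, 0.879, 0.21 and 7.43, adjusted p = 0.0697) and EBF3 (17.3 and 21.98 against 1.60, 0.828, 0.0993 and 8.64, adjusted p = 0.0704) had RASS above all srNMPs without a call. The list had 9 calls without HUES9 P25, and 0 without the library labelled H1, without the one labelled HUES9 or without H1 P25, where the adjusted p of NEUROG2 was 0.128, 0.226 and 0.0944. With a pseudocount of 0.1, MYT1 and EBF2 were lost, and without the filter none of NEUROG2, NHLH2, MYT1 and EBF2 was called.

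Notch pathway genes, which restrain neurogenesis between neighbouring cells, had 17 members, all tested. Of these, 3 rose, against 3.13% of all tested genes, and 0 fell, with a median of 0.57. JAG2, a ligand, was at 11.05 and 10.1 FPKM in RASS and 0.866, 0.608, 0.481 and 1.37 in srNMPs (log2 difference 2.68 ± 0.23, adjusted p = 0.00279), a call that held whichever library was left out. HES1, a target repressor, was at 12.6 and 20.8 against 5.98, 6.43, 8.77 and 4.82 (log2 difference 1.23 ± 0.27, adjusted p = 0.0494), and HEY2, another target, at 3.87 and 4.45 against 0.177, 0.841, 1.51 and 0.584 (log2 difference 1.59 ± 0.31, adjusted p = 0.0353). NOTCH1, the receptor, was at 41.0 and 42.2 against 12.9, 12.2, 6.92 and 29.9 (adjusted p = 0.103), and DLL1, a ligand of differentiating cells, overlapped at 37.3 and 21.3 against 24.4, 14.95, 14.8 and 39.5 (adjusted p = 0.604). HES5, the target most tied to neural progenitors, was at 70.3 and 31.1 against 11.5, 2.52, 7.22 and 51.3 (adjusted p = 0.24), again with a high HUES9 P25 value. HES1 and HEY2 were lost without either RASS library (up to 0.395 and 0.286, without the one labelled HUES9), H1 P25 (0.133 and 0.107) or HUES9 P25 (0.0702 and 0.0529), and HES1 without H1 P8 (0.0837). Both were also lost with a pseudocount of 0.1 and without the filter, and HES1 with quantile normalization.

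Pan-neuronal genes had the most calls of any list. Of 24, all tested, 11 rose and 0 fell, with a median of 1.83, and 19 had both RASS libraries above all srNMPs. Of all tested genes, 3.13% were called as increases and 23.7% had both RASS libraries above all srNMPs. CNTN2, an adhesion molecule of commissural and motor axons, was at 10.2 and 18.8 FPKM in RASS and 0.17, 0.059, 0.0497 and 0.451 in srNMPs (log2 difference 3.67 ± 0.28, adjusted p = 0.00209). DCX, a microtubule protein of migrating neurons, was at 36.2 and 39.6 against 3.28, 0.414, 0.24 and 8.26 (log2 difference 3.75 ± 0.79, adjusted p = 0.0436). ELAVL3, a neuronal RNA-binding protein, was at 20.3 and 34.1 against 2.47, 0.626, 0.263 and 6.40 (log2 difference 3.34 ± 0.69, adjusted p = 0.0415), and L1CAM, an axonal adhesion molecule, at 16.2 and 21.3 against 1.91, 0.713, 1.14 and 3.95 (log2 difference 2.86 ± 0.41, adjusted p = 0.0153). Among srNMPs, DCX and ELAVL3 were highest in HUES9 P25 and next highest in H1 P8. NSG2, MAP2, INA, SNAP25, RTN1, MAPT and GNG3 were the other increases, with differences between 1.38 (SNAP25) and 2.83 (NSG2).

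The other 13 genes of the list were not called. TUBB3, neuronal beta-tubulin, was at 369 and 515 FPKM in RASS and already at 203, 213, 131 and 300.2 in srNMPs (log2 difference 1.10 ± 0.32, adjusted p = 0.0929). STMN2, a growth cone protein, was at 171 and 212 against 13.3, 3.26, 2.47 and 72.0 (log2 difference 4.10 ± 1.15, adjusted p = 0.0825; 0.0102 without HUES9 P25). The count of 11 became 3 without the library labelled H1, 1 without the one labelled HUES9, 3 without H1 P25 and 14 without HUES9 P25, and it was 6 with a pseudocount of 0.1 and 4 without the filter. CNTN2 was called in all of these.

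**Figure D4:**
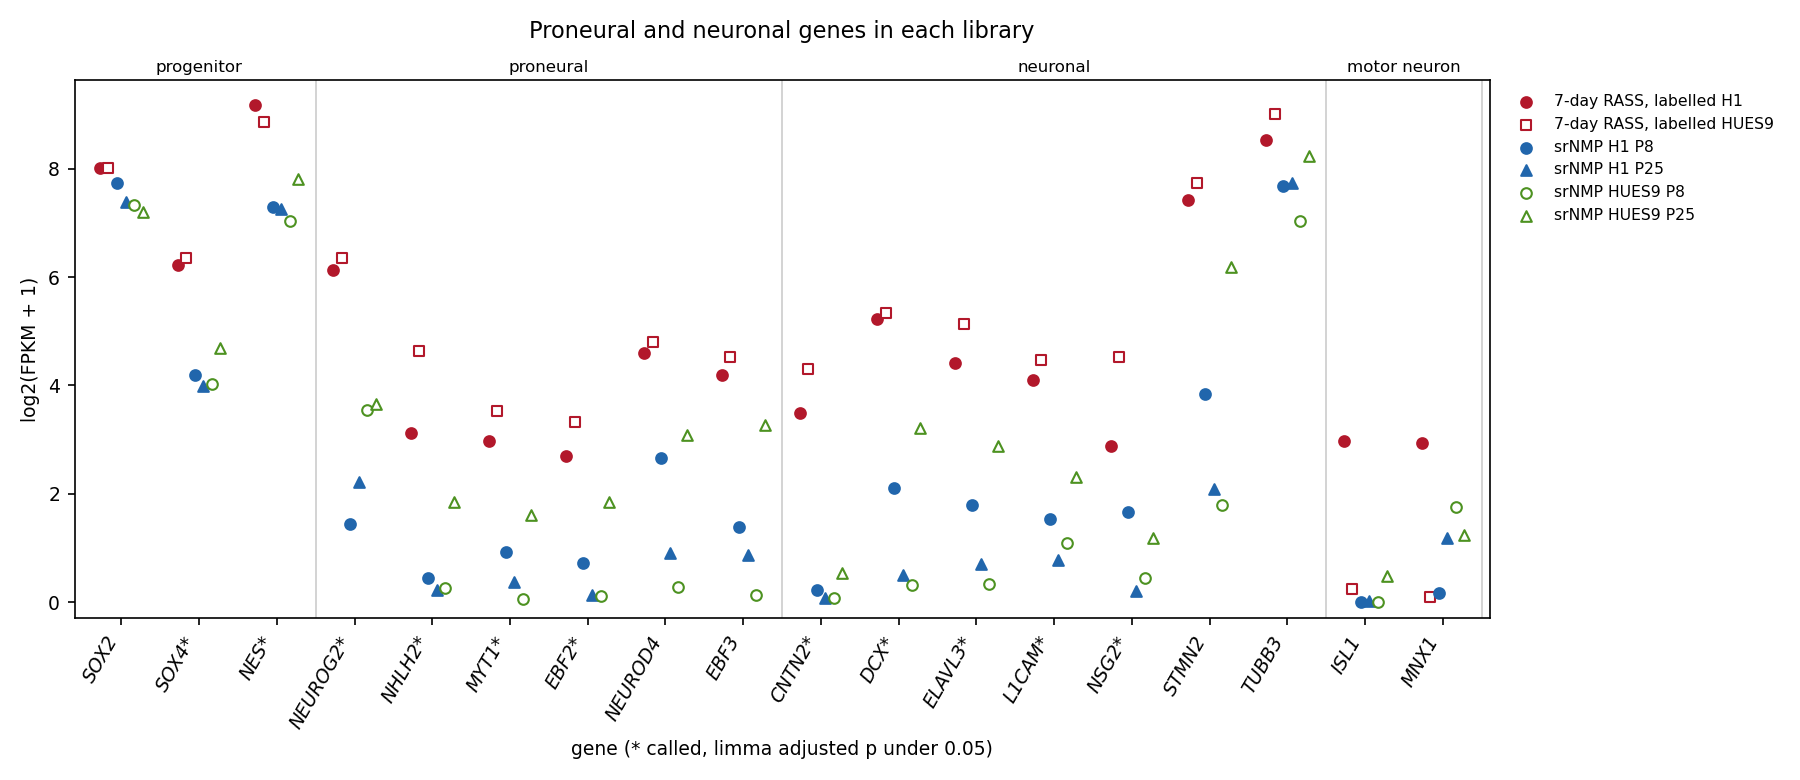
Level of progenitor, proneural, neuronal and motor neuron genes, log2(FPKM + 1), in each of the 6 libraries; each point is 1 library and an asterisk marks called genes. CNTN2, DCX and NEUROG2 are higher in both RASS libraries than in all srNMP libraries, and ISL1 and MNX1 are high in the library labelled H1 alone.

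Single genes of motor neurons and ventral interneurons differed between the RASS libraries. Of 14 motor neuron genes 10 were tested and 0 were called in limma, with a median of 1.20. An unadjusted p under 0.05 was reached by 2 of them, against 3131 of all 12312 tested genes. Both RASS libraries were above all srNMPs for 3 of the 10, against 23.7% of all tested genes. The list summed to 36.0 to 57.6 FPKM in RASS and 6.17 to 40.5 in srNMPs. Without HUES9 P25, 2 were called, and at equal totals 1. ISL1, a LIM factor of postmitotic motor neurons, was at 6.85 FPKM in the library labelled H1 and 0.181 in the one labelled HUES9, against 0 to 0.398 in srNMPs. MNX1, a homeobox factor of motor neurons, was at 6.63 and 0.068, against 0.116 to 2.38 in srNMPs, and ISL2, related to ISL1, at 4.77 and 0, against 0 to 0.111. The transmitter genes CHAT and SLC18A3 were under 1 FPKM in every library. OLIG2 and OLIG1 had the same order as these genes within RASS, with 182 against 51.2 and 70.1 against 5.14 FPKM.

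Other genes had their higher RASS value in the library labelled HUES9. EVX1, a factor of V0 interneurons, was at 5.92 FPKM there and 1.04 in the library labelled H1, against 0 to 0.759 in srNMPs, and LHX5, a LIM factor of interneurons, at 12.03 and 2.66, against 0 to 1.61 (adjusted p = 0.0912 and 0.0608). PAX6, DBX1 and IRX3, given above, had the same order. For the counts that follow, 3.13% of all tested genes were called as increases. Of 10 tested ventral interneuron genes 1 rose, LHX1, at 1.47 and 3.71 against 0, 0.00847, 0.00802 and 0.65 (log2 difference 1.58 ± 0.34, adjusted p = 0.0468), a call lost without either RASS library or without H1 P25, H1 P8 or HUES9 P8 (adjusted p between 0.0644 and 0.361). EN1, a factor of V1 interneurons and of the midbrain and hindbrain border, had lower values in RASS, at 18.01 and 3.58 against 52.0, 40.5, 39.3 and 32.2 (log2 difference -2.15 ± 0.51, adjusted p = 0.0577). Of 9 tested dorsal interneuron genes 0 were called in limma, with a median of -0.19. An unadjusted p under 0.05 was reached by 1 of them, against 3131 of all 12312 tested genes. PAX2, which marks several interneuron classes, was at 1.63 and 4.56 against 27.4, 23.9, 14.2 and 8.31 (adjusted p = 0.0512, and 0.0231 without HUES9 P25). POU4F1, a sensory and dorsal factor, was at 0.644 and 5.34 against 4.98, 0.703, 0.236 and 0.248. With 1 library on each side, differences within RASS have no replicate check. Over all tested genes, 89 (0.723%) differed by more than 2 on the log2 scale between the RASS libraries, 42 higher in the one labelled H1 and 47 in the one labelled HUES9, and 5 of these were among the 688 called.

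HOX genes record position along the trunk. Of 15 genes of paralogue groups 1 to 5, 2 rose and 0 fell, with a median of 0.35. Of 12 of groups 6 to 9, 2 rose and 0 fell, with a median of 0.76. Over all tested genes, 3.13% rose. HOXD3 was at 12.3 and 14.4 FPKM in RASS and 2.31, 2.01, 4.17 and 5.18 in srNMPs (log2 difference 1.76 ± 0.32, adjusted p = 0.0302), and HOXB5 at 21.2 and 31.3 against 11.1, 12.6, 10.7 and 9.65 (log2 difference 1.16 ± 0.20, adjusted p = 0.0256). HOXA6 was at 15.4 and 20.9 against 3.62, 5.95, 0.889 and 2.16 (log2 difference 2.35 ± 0.48, adjusted p = 0.0416), and HOXB6 at 48.5 and 70.7 against 32.6, 29.8, 30.0 and 31.1 (log2 difference 0.91 ± 0.18, adjusted p = 0.0377). HOXB1 (13.9 and 16.8 against 21.8, 25.03, 36.0 and 28.03, adjusted p = 0.0807), HOXC6 (31.7 and 38.1 against 7.63, 22.9, 30.9 and 13.7, adjusted p = 0.241) and HOXC9 (22.99 and 26.9 against 0.0565, 9.84, 13.2 and 4.80, adjusted p = 0.204) were not called. All 4 calls were lost without either RASS library or without H1 P8 or H1 P25, with adjusted p-values up to 0.334 (HOXB6, without the library labelled HUES9). Without HUES9 P25, HOXA6 (0.0639) and HOXB6 (0.0603) were lost as well. HOXD3 and HOXA6 were also lost without the filter, and HOXA6 with a pseudocount of 0.1, while equal totals gave 4 increases in groups 1 to 5.

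Of 12 genes of groups 10 to 13, 3 were tested and 0 were called in limma or had an unadjusted p under 0.05. HOXC10 was at 13.5 and 0.0151 FPKM in the libraries labelled H1 and HUES9 and at 0, 0.661, 14.6 and 8.01 in srNMPs. HOXD9 was at 28.3 and 0 against 0.119, 0.264, 5.79 and 3.97. Both genes were thus high in HUES9 srNMPs and in the RASS library labelled H1, and HOXC10 is 1 of the 10 genes of the label check above.

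Cell surface genes changed in both directions. Of 24 axon guidance genes 23 were tested, 2 rose and 2 fell, against 3.13% and 2.46% of all tested genes, with a median of 0.63. SLIT3, a repellent ligand, was at 12.2 and 12.2 FPKM in RASS and 0.154, 0.265, 0.367 and 0.917 in srNMPs (log2 difference 3.24 ± 0.24, adjusted p = 0.00198), and EPHA3, an ephrin receptor, at 3.40 and 26.1 against 0.107, 0.0742, 0.0966 and 0.351 (log2 difference 3.24 ± 0.63, adjusted p = 0.0354). SEMA3A, a repellent semaphorin, fell, at 0.949 and 1.90 against 19.1, 14.2, 14.8 and 10.1 (log2 difference -2.68 ± 0.28, adjusted p = 0.00581), as did NRP2, a semaphorin receptor, at 1.82 and 1.07 against 3.44, 4.82, 6.83 and 5.11 (log2 difference -1.29 ± 0.26, adjusted p = 0.0402). ROBO1, the receptor of SLIT proteins, overlapped at 15.8 and 31.1 against 35.2, 19.6, 26.5 and 24.7. Of 9 tested junction and cadherin genes 1 rose, CRB2, an apical polarity protein, at 33.5 and 31.9 against 13.4, 14.8, 13.96 and 21.4 (log2 difference 1.02 ± 0.21, adjusted p = 0.0423). SLIT3 and SEMA3A were called whichever library was left out. EPHA3 ended without the library labelled HUES9, H1 P25, H1 P8 or HUES9 P8 (adjusted p up to 0.116), and NRP2 and CRB2 without either RASS library (up to 0.336 and 0.29) or H1 P25 (0.122 and 0.127), NRP2 without HUES9 P25 (0.061), CRB2 without H1 P8 (0.0732), and all 3 without the filter. Without HUES9 P25, 4 axon guidance genes were called as increases.

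BMP and TGF-beta genes had 14 tested of 21, with 0 increases, 1 decrease (2.46% of all tested genes fell) and a median of 0.00. The decrease was BMP2, a ligand, at 0.04 and 0.00839 FPKM against 1.28, 1.69, 1.51 and 1.08 (log2 difference -1.22 ± 0.20, adjusted p = 0.0213), lost without either RASS library (adjusted p = 0.105 and 0.204) or H1 P25 (0.0854). The ID genes, inhibitors of helix-loop-helix factors and targets of BMP signals, did not share a direction: ID1 was at 147 and 28.7 against 4.80, 7.41, 18.7 and 13.2 (adjusted p = 0.0748) and ID3 at 30.4 and 7.08 against 40.9, 105, 171 and 84.6 (adjusted p = 0.0734). Of 22 proliferation genes, all tested, 0 were called in limma, with a median of 0.12. An unadjusted p under 0.05 was reached by 6 of them, against 3131 of all 12312 tested genes. MKI67, a marker of cycling cells, was at 96.7 and 104 against 63.6, 41.5, 16.2 and 65.0 (adjusted p = 0.189).

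**Figure D5:**
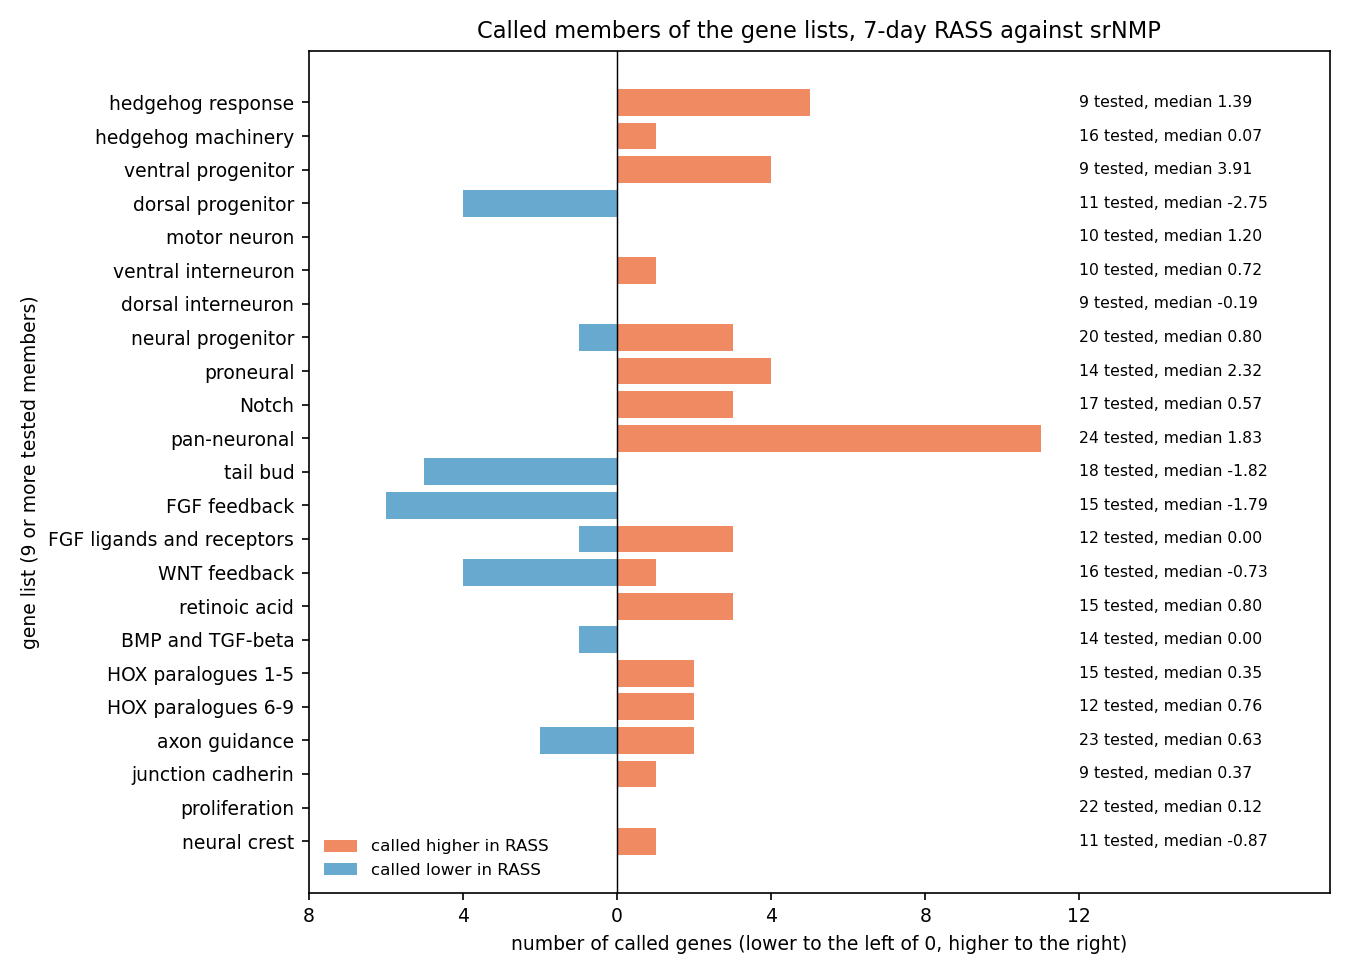
Number of called genes in each list with 9 or more tested members, increases in RASS to the right and decreases to the left (horizontal axis, number of genes), with the number tested and the median log2 difference beside each bar. Pan-neuronal genes have 11 increases, FGF feedback genes 6 decreases, and proliferation, motor neuron and dorsal interneuron genes 0 calls.

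Markers of other cell types were summed to see what else the cultures could hold. Their part in the results above was not tested. The share of all tested genes that fell was 2.46%. Simple epithelial keratins fell: KRT8 was at 0.742 and 0.613 FPKM in RASS and 32.0, 67.7, 41.3 and 17.3 in srNMPs (log2 difference -4.44 ± 0.47, adjusted p = 0.00599), and KRT18, its partner, at 2.65 and 1.11 against 26.6, 69.7, 65.0 and 36.7 (log2 difference -4.08 ± 0.43, adjusted p = 0.00599). They were the 2 called of 3 tested surface ectoderm genes (8 on the list), whose summed FPKM was 1.80 to 3.64 in RASS and 54.3 to 142 in srNMPs, while KRT5, a basal keratin, was listed at 0 in all libraries. Of 6 tested fibroblast and smooth muscle genes 2 fell, the actin-binding gene TAGLN at 0.573 and 0.363 against 17.1, 20.6, 19.6 and 3.77 (log2 difference -3.26 ± 0.61, adjusted p = 0.0327) and smooth muscle actin ACTA2 at 2.37 and 2.14 against 8.51, 21.7, 40.4 and 17.6 (log2 difference -2.63 ± 0.51, adjusted p = 0.0354), with sums of 3.41 to 8.33 in RASS and 25.4 to 71.1 in srNMPs. Among omissions of 1 library, KRT8 and KRT18 were lost only without the one labelled HUES9. Each of these 2 genes was called in 17 of the 19 alternatives. TAGLN and ACTA2 were lost without either RASS library, without H1 P25 (adjusted p = 0.102 and 0.117) and without the filter. TAGLN was also lost without H1 P8 (0.0572), and ACTA2 without HUES9 P25 (0.0513).

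Neural crest markers summed to 56.3 to 105 FPKM in RASS and 22.7 to 71.8 in srNMPs, with 1 of 11 tested genes called higher, against 3.13% of all tested genes. That gene was NGFR, a neurotrophin receptor of crest and of several neural cells, at 39.6 and 33.7 against 3.46, 3.71, 4.76 and 2.76 (log2 difference 3.02 ± 0.21, adjusted p = 0.00133). SOX10, which defines neural crest, was listed at 0 in both RASS libraries and was at 0.241, 0.161, 9.89 and 0 in srNMPs, so that HUES9 P8 alone held an appreciable level. TFAP2B, another crest factor, was at 0.0207 and 0.178 against 16.7, 4.46, 5.03 and 1.70 (adjusted p = 0.0685). Of 5 tested glial genes 1 rose, SPARCL1, at 17.6 and 10.2 against 0.478, 1.10, 0.102 and 1.25 (log2 difference 3.11 ± 0.35, adjusted p = 0.00749), with sums of 71.4 to 119 in RASS and 25.5 to 53.7 in srNMPs, and PDGFRA, a marker of oligodendrocyte precursors, was at 0.0809 and 0.00369 against 0.186, 0.529, 1.64 and 0.544. SPARCL1 lost its call without the library labelled H1 (adjusted p = 0.0506), and NGFR under no omission.

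The other marker lists had 0 called genes in limma, with 0 to 2 members each at an unadjusted p under 0.05. Among all 12312 tested genes, 3131 had such a p. Paraxial mesoderm genes summed to 2.74 to 2.92 FPKM in RASS and 1.54 to 4.70 in srNMPs, with TBX6 at 0.289 and 0.29 against 0.283, 0.822, 0.511 and 0.588. Pluripotency genes summed to 58.9 to 63.5 against 77.6 to 90.0, mostly through DNMT3B and DPPA4. DNMT3B was at 25.5 and 30.5 against 32.9, 53.6, 26.1 and 38.0, and DPPA4 at 32.9 and 32.3 against 55.9, 24.4, 38.9 and 30.9. Endoderm genes summed to 10.96 to 26.8 against 10.7 to 35.1. Nearly all of this was CXCR4, at 26.7 and 10.8 against 10.7, 22.5, 35.0 and 27.6, while GATA4 and GATA6 were listed at 0 in all 6 libraries. Muscle genes summed to 0.998 to 1.89 against 3.11 to 14.5, and endothelial and blood genes to 1.36 to 2.42 against 0.211 to 2.21. MYOD1, which defines the muscle lineage, was listed at 0 in all 6 libraries. POU5F1, which defines pluripotent cells, was at 0.0103 and 0.119 against 0.0605, 0.0105, 0.189 and 0.314. Rostral brain genes summed to 5.44 to 24.3 in RASS and 43.0 to 79.4 in srNMPs, mostly through EN2, a factor of the midbrain and hindbrain, at 23.7 and 2.35 against 72.4, 46.3, 54.6 and 41.5 (adjusted p = 0.0785).

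Outside the lists, the largest called changes were in genes of varied function. LAMP5, a lysosome-related membrane protein of neurons, was at 22.1 and 61.9 FPKM in RASS and 0.23, 0.16, 0.0759 and 0.718 in srNMPs (log2 difference 4.90 ± 0.40, adjusted p = 0.00264). DIO3, which inactivates thyroid hormone, was at 21.5 and 20.4 against 0.0529, 0, 0.0392 and 0.22 (log2 difference 4.35 ± 0.18, adjusted p = 0.000449). DBH, the enzyme that makes noradrenaline, was at 44.5 and 39.0 against 2.24, 0.222, 0.24 and 2.38 (log2 difference 4.40 ± 0.49, adjusted p = 0.00698), EDNRB, an endothelin receptor, at 73.8 and 29.97 against 2.75, 0.173, 2.71 and 2.88 (log2 difference 4.09 ± 0.58, adjusted p = 0.0146), and RHBDL3, a rhomboid family protein, at 74.7 and 90.9 against 1.25, 0.324, 2.06 and 19.4 (log2 difference 4.50 ± 0.98, adjusted p = 0.0478). Among the decreases, IFITM1, an interferon-induced membrane protein, was at 0 and 0.846 against 37.0, 88.5, 68.2 and 28.9 (log2 difference -5.24 ± 0.48, adjusted p = 0.00363), and SLC30A8, a zinc transporter, at 0.0435 and 0.00912 against 31.3, 32.0, 24.1 and 9.45 (log2 difference -4.49 ± 0.46, adjusted p = 0.00561). LAMP5, DIO3 and IFITM1 were called whichever library was left out. The others were lost without the library labelled HUES9 (adjusted p = 0.0643 for DBH, 0.0591 for EDNRB, 0.315 for RHBDL3 and 0.0572 for SLC30A8), and EDNRB and RHBDL3 also without the one labelled H1 (0.0882 and 0.186). RHBDL3 was further lost without H1 P25 (0.122), H1 P8 (0.0791) or HUES9 P8 (0.069), with a pseudocount of 0.1 and without the filter.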

How the data were processed

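FPKM values of messenger RNA were taken as deposited, from a table with 1 column per library. Per the labels' protocols, libraries were made with a TruSeq Stranded mRNA kit from RNA with an integrity number above 7 for Illumina sequencing. Per the submitters' processing notes, the authors used Trimmomatic, HISAT2, HTSeq and Cufflinks with genome build hg18; roles, versions, use of strand and gene lengths are not given in the sources used here. Genes are named by the table's symbols, and 1 column of values, which matched no sample, was not used. FPKM carry no counts, so depth is an estimate and no counting interval is given.

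Genes that reached 1 FPKM in any of the 6 libraries were fitted on log2(FPKM + 1) with limma 3.58.1 in R 4.3.3 (1 mean per group, no line term, variance trend, 4 residual and 3.10 prior degrees of freedom). The two-sided tests were adjusted over 12312 genes by Benjamini and Hochberg and called under 0.05. The script was run on simulated data with independent noise in each library and shifts planted only in genes away from low values. That setting does not model libraries that share a line or genes near 0 in a group. With 2 libraries against 4 an exact permutation test has 15 splits and cannot go below 0.0667, so none is reported. SDs are given with n = 2 (RASS) and n = 4 (srNMP). Since the line labels of the RASS libraries are in doubt, libraries were not paired by line in the main fit.

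The comparison, its markers and the 34 gene lists were chosen with earlier results of these data known. Named genes are the 5 markers, the first member of each list, up to 5 called members per list and direction and up to 3 uncalled ones with a difference of at least 2 and groups that do not overlap, the 10 largest called changes in each direction (these 3 kinds with a higher group mean of at least 5 FPKM), and all tested hedgehog response and ventral progenitor genes. PAX6, CDX2, NKX1-2, PAX7, IRX3, GLI3, SP8, HOXD9, ISL1, ISL2, EVX1, HES5, SOX3, NOTCH1, ETV5, MAP2, INA, SNAP25, MAPT, GNG3, RTN1, HEY2, BMP2, LHX1, CXCR4, DNMT3B and DPPA4, and genes given only as not tested, were named after their values were seen. Some genes that count in the lists or meet the rule are not reported here by name. Alternatives changed the pseudocount, filter, scaling, variance trend, replicate block, srNMP libraries and libraries fitted, and left out each library in turn.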

Additional observations from a re-analysis of the deposited data

Results flagged for a closer look

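Among 160 genes examined in the 4 srNMP libraries, 21 had 1 library far from the other 3. The measure was the gap to the nearest library as a share of the whole range (Dixon's criterion). It was taken on the log2(FPKM + 1) scale, while the levels below are printed as FPKM. Its chance rate of about 1 in 20 is for normally distributed values. Some genes here were listed at 0 in 3 libraries, so the chance rate for these FPKM values is not known. The H1 P25, H1 P8 and HUES9 P8 libraries had 1, 1 and 2 of the 21 flagged genes, and HUES9 P25 had 17, of which 15 were high.

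Many of the genes examined came from lists of neural genes. In HUES9 P25, DBX1 was at 66.0 FPKM, against 0.157 or less in the other srNMP libraries, PAX6 at 24.5 against 0.324 or less, and NTN1 at 13.1 against 0.429 or less. PRDM8 was at 5.36 FPKM, OLIG2 at 3.08, NHLH2 at 2.59, OLIG1 at 2.53 and LHX5 at 1.61. Levels under 1 FPKM were flagged for EVX1 (0.759 FPKM), LHX1 (0.650 FPKM), DBX2 (0.474 FPKM), RARB (0.439 FPKM), ISL1 (0.398 FPKM), EPHA3 (0.351 FPKM) and SIM1 (0.316 FPKM). The low genes there were LIX1 at 6.88 FPKM, against 17.7 to 19.9, and TAGLN at 3.77, against 17.1 to 20.6. This library also had the highest Spearman's rho with the RASS library labelled H1 (0.932) of the 4.

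In HUES9 P8, SOX10 was at 9.89 FPKM, against 0.241 or less, and FOXF1 at 0.297. In H1 P25, EDNRB was at 0.173 FPKM, against 2.71 to 2.88. In H1 P8, NKX2-2 was at 0.0231 FPKM, with 0 listed in the others.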

How the results depend on the processing

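Against 688 calls (385 higher, 303 lower), the alternatives gave 553 (232 and 321) with a pseudocount of 0.1, 532 (336 and 196) without the filter, 719 with 1 FPKM in at least 2 libraries, 861 (605 and 256) at equal totals, 944 (489 and 455) with quantile normalization, 717 without the variance trend and 1247 (715 and 532) with all 15 libraries fitted. With srNMPs of 1 passage, 136 (87 and 49, P8) and 126 (48 and 78, P25) were called, and with the passages as separate groups 306 (169 and 137). Leaving out 1 library gave 72 to 924 calls, 43 to 509 higher and 29 to 450 lower. Against H1 srNMPs alone, an alternative added after seeing the data, 1091 (635 and 456) were called. The cell line as a replicate block gave 417 (227 and 190) as labelled and 669 (355 and 314) with the RASS libraries exchanged. The causes of these shifts were not tested, beyond fewer libraries in some fits and fewer or more genes tested in others.

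Of 84 called genes picked by the naming rule or added to it, 0 changed direction in any of the 19 alternatives. Equal totals kept 83 calls, quantile normalization 83, the smaller pseudocount 70, no filter 54, and the replicate block 70 as labelled and 74 exchanged. Leaving out 1 library kept 29 (without the RASS library labelled HUES9) to 74 (without either HUES9 srNMP library), and 27 were called whichever library was left out. Genes without a call did turn: HOXC10 (-0.03) was at 0.10 at equal totals and 1.57 against H1 srNMPs alone, and ROBO1 (-0.21) at 0.0144 at equal totals and 0.0146 against P25. With 1 library left out, differences ranged from -1.94 to 1.89 (HOXC10), -0.68 to 0.25 (ROBO1), -0.99 to 1.85 (MNX1), -0.28 to 1.67 (POU4F1), -0.0132 to 0.76 (DLL1), -0.98 to 0.53 (COL1A1), -1.01 to 0.20 (MYCN), -1.11 to 4.36 (DBX1), -2.02 to 0.23 (IRX3) and -1.39 to 3.48 (HOXD9), in each case with the extremes from leaving out the RASS libraries. With 2 RASS libraries of uncertain line and no read counts, neither depth nor culture variation could be separated from the spread.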

Other observations

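The deposited table annotates genes with KEGG pathways, which allowed a count outside the lists, made after the main results were seen. Among pathways with at least 20 tested genes, the one named basal cell carcinoma, which joins hedgehog and WNT genes, had the highest share called: 13 of 47 genes, 8 higher and 5 lower (27.7%, against 5.59% of all tested genes). PTCH1, HHIP and GLI1 were among those that rose, and AXIN2, LEF1, BMP2 and BMP4 among those that fell. The hedgehog signalling pathway had 6 of 44 genes higher and 0 lower, and the Notch pathway 7 of 50 higher and 0 lower. The WNT pathway had 11 of 122 higher and 9 lower.

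Of 128 tested ribosome genes, 20 fell and 0 rose in RASS, against 2.46% of all tested genes that fell, with a median difference of -0.80. The median was -0.56 at equal totals (36 lower, 0 higher) and -0.44 with quantile normalization (31 lower, 0 higher), where 256 and 455 of all 12312 genes were called lower. In each library the 10 genes with the highest values made up between 6.06% and 8.78% of the summed FPKM.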
